A study of Homo sapiens with 15 samples.

Results

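Senescent IMR90 cells with a short hairpin against TXNRD1 were compared with growing IMR90 cells, to read which parts of the senescent expression state remained, were lost or were new in the hairpin cells. The comparison holds 6 of the 15 RNA-seq libraries of the series, chosen by their labels, and 15994 of the 57736 Ensembl genes in the deposited table, those that passed a filter on low counts. IMR90, an established human fibroblast line from fetal lung, gave the total RNA of every library. The shTXNRD1 libraries (n = 3) came from senescent cells of the shTXNRD1 condition, the senescent control libraries (n = 3) from senescent cells of a control condition, and the growing libraries (n = 3) from proliferating cells of a control condition. The senescent controls served to sort the genes of the comparison into classes. The remaining 6 libraries, senescent cells with the vehicle DMSO or with Tri-1, which inhibits the TXNRD1 protein, shared the model that estimated the spread. The labels do not say how senescence was induced, how many hairpins were used, what the control for the hairpin was, how long after treatment the cells were taken or whether the replicates were separate cultures. For that reason the p-values cover only how these samples vary among themselves, and that variation may be technical.

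TXNRD1 is a cytosolic selenoprotein that uses NADPH to reduce thioredoxin, which in turn reduces peroxiredoxins and other proteins. Senescent cells leave the cell cycle for good under the inhibitor protein p21 (CDKN1A) and the RB pathway, lose lamin B1 and secrete cytokines, chemokines and proteases, the secretory phenotype, under NF-kB, C/EBP and AP-1 factors. Cytosolic DNA in such cells can be read by cGAS and its adaptor STING, which feed NF-kB and the interferon response.

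Promoters of members from 3 of the gene groups below are printed to show the letters their known regulators read. They are RefSeq promoters of build GRCh38.p14, the 150 bases before the gene's start, 5′ to 3′ on the gene's strand. Capitals mark the motif: the kB motif of NF-kB (GGG, NN, TTTCC without gaps) in IL6, CXCL6 and CCL20, which encode secreted factors, the cell-cycle homology region TTTGAA in MKI67, a proliferation gene, and the interferon-stimulated response element (GAAA, NN, GAAA without gaps) in GBP1, an interferon-induced GTPase. Both strands were searched, and in CCL20 and GBP1 the capitals are the reverse complement of the motif.
IL6: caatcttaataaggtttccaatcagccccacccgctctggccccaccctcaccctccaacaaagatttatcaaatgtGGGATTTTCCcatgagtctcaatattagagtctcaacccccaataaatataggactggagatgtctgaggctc
CXCL6: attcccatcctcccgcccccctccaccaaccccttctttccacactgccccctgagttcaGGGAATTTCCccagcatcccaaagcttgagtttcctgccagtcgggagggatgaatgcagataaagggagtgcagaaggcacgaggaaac
CCL20: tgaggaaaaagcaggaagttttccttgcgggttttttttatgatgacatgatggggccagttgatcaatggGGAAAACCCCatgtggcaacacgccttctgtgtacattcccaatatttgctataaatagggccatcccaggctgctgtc
MKI67: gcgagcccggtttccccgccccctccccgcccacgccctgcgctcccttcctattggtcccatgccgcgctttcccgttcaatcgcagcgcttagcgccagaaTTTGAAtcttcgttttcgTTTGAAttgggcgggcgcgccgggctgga
GBP1: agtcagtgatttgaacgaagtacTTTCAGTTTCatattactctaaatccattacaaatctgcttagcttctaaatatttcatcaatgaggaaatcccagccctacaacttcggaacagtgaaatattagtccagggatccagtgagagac
The windows lie at chr7:22727050-22727199 (plus strand) for IL6, chr4:73836528-73836677 (plus) for CXCL6, chr2:227813692-227813841 (plus) for CCL20, chr10:128126424-128126573 (minus) for MKI67 and chr1:89065209-89065358 (minus) for GBP1. The kB letters begin 73, 90 and 79 bases before the start of IL6, CXCL6 and CCL20, the TTTGAA letters of MKI67 47 and 29 bases before it without overlapping each other, and those of GBP1 127 bases before it. In windows of 300 bases around the start, the kB letters were in 7 of the 25 matched promoters of the cytokine list (28%) and in 6 of 24 of the NF-kB list (25%), against 1.91% of all 35116 promoters. TTTGAA was in 23 of 33 promoters of the mitosis list (69.7%), against 15.2% of all, and the interferon element in 20 of 30 of the interferon-stimulated list (66.7%), against 3.57%. The AP-1 motif TGACTCA was in 4 of 25 cytokine promoters (16.0%) and 1 of 17 protease promoters (5.88%), against 4.95%. The antioxidant motif TGACNNNGC was in 5 of 25 promoters of NRF2 targets (20%), against 13.3%, and the sterol motif TCACNCCAC in 1 of 24 of the cholesterol list (4.17%), against 1.13%. These are matches of letters, not measured binding sites.

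The 9 libraries of the 3 groups held 18033076 to 25484005 counts. On the log2 scale, the root-mean-square distance over genes was 0.475 to 0.72 between shTXNRD1 libraries, 1.24 to 1.37 between shTXNRD1 and growing libraries, 0.772 to 1.05 between shTXNRD1 and senescent control libraries, and 1.16 to 1.33 between senescent control and growing libraries. The first principal component (60.0% of the variance) placed the shTXNRD1 libraries at 48.11 to 57.63, the senescent controls at 39.44 to 42.04 and the growing libraries at -97.29 to -91.89. The second (22.9%) set the senescent groups apart, with shTXNRD1 libraries at 22.46 to 69.6 and senescent controls at -56.11 to -40.7. On it the growing libraries lay at -12.39 to 26.26. Libraries within a group differed with the GC content of the transcripts. Spearman's rho between a gene's deviation from its group mean and its GC content (across 15433 genes, which are not independent) was 0.64, 0.198 and -0.665 in the 3 shTXNRD1 libraries, 0.019, 0.475 and -0.452 in the senescent controls and -0.692, 0.503 and 0.591 in the growing libraries. The third shTXNRD1 library, the third senescent control and the first growing library were thus low in GC-rich genes, and results were also computed without them and with a GC correction. Changes between groups were also correlated with GC content. For the log2 fold change, rho was 0.278 in senescent control against growing cells and -0.312 in shTXNRD1 against senescent control cells. In shTXNRD1 against growing cells it was 0.0211. Fibroblast markers, mostly FN1 and COL1A2, summed to 24923 to 27300.2 CPM (counts relative to the TMM-scaled library size) in shTXNRD1 libraries, 29554 to 31586 in senescent controls and 28163 to 32779 in growing libraries. The sum hides single markers: of 12, 2 were called higher and 6 lower in shTXNRD1 than in growing cells (median log2 fold change -0.39). VIM had 1134 to 1236 CPM in shTXNRD1 and 4537 to 4658 CPM in growing libraries, and FAP 146 to 185 and 25.8 to 31.1 CPM. Epithelial markers, mostly the keratin KRT18, summed to 55.5 to 67.6 CPM in shTXNRD1 libraries, 50.3 to 56.0 in senescent controls and 60.0 to 82.8 in growing libraries. The epithelial genes KRT5 and SFTPC and the T cell gene CD3E were at 0 in all 9.

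The hairpin's target was measured first. TXNRD1 had 21, 21.6 and 25.3 CPM in the shTXNRD1 libraries, against 506, 511 and 528 CPM in the senescent controls and 1779, 1603 and 1525 CPM in the growing libraries. The 3 groups did not overlap, and the senescent controls lay between the others. TXNRD1 was 72.2-fold lower in shTXNRD1 than in growing cells (log2 fold change -6.17 ± 0.09, SE; adjusted p = 1.78e-15, quasi-likelihood F test of edgeR, as for every adjusted p below) and 3.18-fold lower in senescent control than in growing cells (-1.67 ± 0.07). As the target of the hairpin, TXNRD1 checks the labels and is no independent result.

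Against growing cells, 10061 genes were called in shTXNRD1 cells at an adjusted p under 0.05, 62.9% of those tested, 5182 higher (32.4%) and 4879 lower (30.5%). In senescent control against growing cells 9108 were called (56.9%), 4383 higher (27.4%) and 4725 lower (29.5%). The direct test of shTXNRD1 against senescent control called 8105 (50.7%), 4134 higher (25.8%) and 3971 lower (24.8%). These comparisons share libraries, and the counts of members below are to be read against these shares. The median log2 fold change over all tested genes was 0.05 in shTXNRD1 and 0.03 in senescent control against growing cells. At least 2-fold, 2277 genes (14.2%) were higher and 1959 (12.2%) lower in shTXNRD1 than in growing cells.

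Most calls of the senescent state remained. Of the genes called higher in senescent control than in growing cells, 3152 (71.9%) were also called higher in shTXNRD1 cells, and of those lower, 3299 (69.8%) were also lower. Among the higher genes that remained, the direct test put 1003 further from growing cells in shTXNRD1 than in senescent control cells (median log2 fold change against growing cells 1.29, against 0.62 in senescent control), 624 nearer to growing cells (1.37, against 2.39), and did not call 1525. Among the lower ones, 1225 lay further (-1.42, against -0.67), 462 nearer (-0.51, against -1.01), and 1612 were not called.

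A smaller set was lost, new or reversed. Genes were taken as lost when they were called in senescent control but not in shTXNRD1 against growing cells and the direct test called them back toward growing cells: 613 genes higher in senescence (14% of the higher calls) and 834 lower (17.7%) were lost, with medians in shTXNRD1 of 0.02 and -0.01 against growing cells. Genes were taken as new when they were called in shTXNRD1 but not in senescent control cells and the direct test called them the same way: 1273 were new and higher (24.6% of the higher calls of shTXNRD1) and 1003 new and lower (20.6%). In 588 genes the direction was reversed: 262 were higher in senescent control and lower in shTXNRD1 than in growing cells, and 326 the other way round. Of all tested genes, 40.3% remained, 9.05% were lost, 14.2% were new and 3.68% were reversed. The fates of list members below are to be read against these shares. The median transcript GC content was 55.0% for lost genes that had been higher, 42.7% for lost genes that had been lower, 43.9% for new higher and 50.8% for new lower genes, against 47.7% for all tested genes. With a GC correction, 5949 of the 6451 remaining, 887 of the 1447 lost, 1223 of the 2276 new and 460 of the 588 reversed genes kept their class. Without the 3 libraries low in GC-rich genes, 5947, 1091, 1799 and 477 did.

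**Figure D1:**
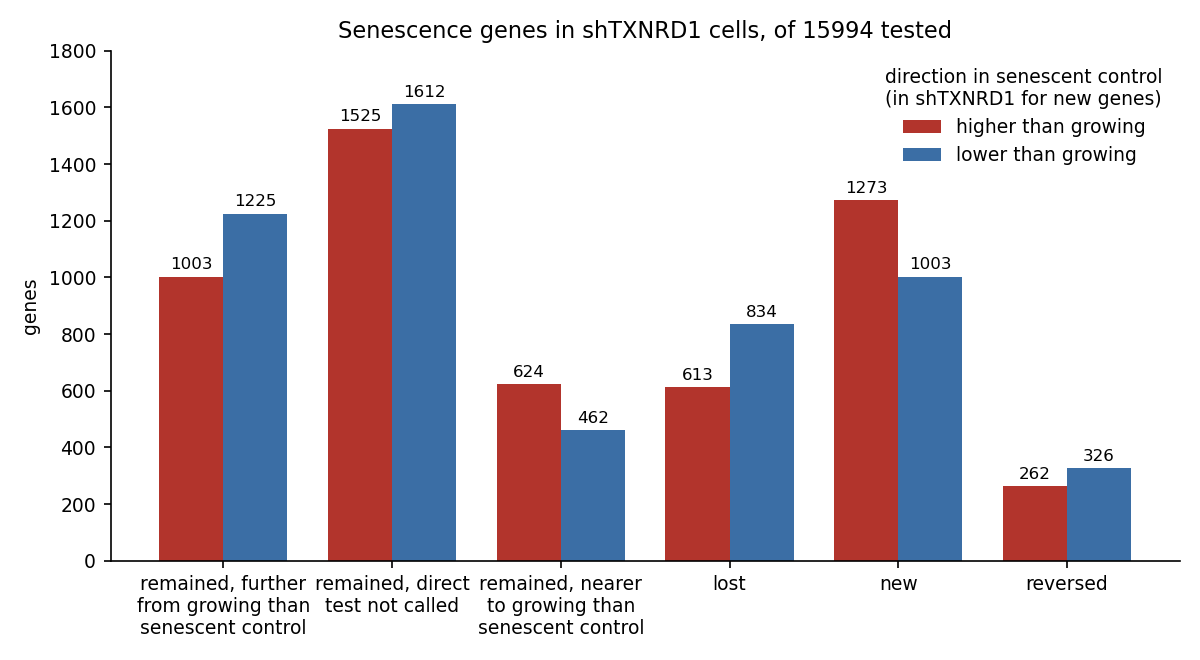
Number of genes (y axis) in each class of the senescent state in shTXNRD1 cells, split by direction against growing cells (red higher, blue lower) in senescent control, or in shTXNRD1 cells for new genes. The classes of genes that remained hold 1003 and 1225, 1525 and 1612, and 624 and 462 genes, more together than the lost, new and reversed classes.

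Markers of arrest stood apart from growing cells in both senescent groups. CDKN1A had 1912, 1812 and 1570.4 CPM in shTXNRD1 libraries, 1685, 1795 and 1666 CPM in senescent controls and 290, 369.5 and 359 CPM in growing libraries. LMNB1, lamin B1, had 5.15, 6.56 and 6.49 CPM in shTXNRD1 libraries, 6.2, 5.64 and 5.8 CPM in senescent controls and 62.3, 56.2 and 54.8 CPM in growing libraries. For both genes the shTXNRD1 and senescent control libraries overlapped and both stood apart from growing cells, by 2.38 ± 0.10 on the log2 scale for CDKN1A (adjusted p = 4.77e-11) and -3.25 ± 0.11 for LMNB1 (adjusted p = 3.29e-12) in shTXNRD1 cells. The direct log2 differences were 0.04 ± 0.09 and 0.05 ± 0.11. Of 24 arrest, lamina and chromatin genes, 8 rose and 13 fell in shTXNRD1 against growing cells, with a median of -0.50. HMGA2, a chromatin protein of senescence foci, rose (597 ± 59.6 CPM in shTXNRD1, 612 ± 29.9 CPM in senescent control and 196 ± 19.9 CPM in growing cells, SD, n = 3 each), and so did GLB1, the gene of senescence-associated beta-galactosidase (175 ± 6.88, 134 ± 6.02 and 116 ± 2.25 CPM), which lay further from growing cells with the hairpin.

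The other CDK inhibitors split. CDKN2A, the p16 and ARF gene, had 20.4, 19 and 18.2 CPM in shTXNRD1 libraries, 10.7, 10.4 and 11.4 CPM in senescent controls and 15.1, 16.7 and 15.3 CPM in growing libraries. It was the lowest in senescent controls and the highest in shTXNRD1 libraries without overlap, a reversed gene whose rise over growing cells was small (0.29 ± 0.08, adjusted p = 0.00687) and was not called with the GC correction (adjusted p = 0.246). CDKN1C, the p57 gene, was new: 4.18 ± 0.0921 CPM in shTXNRD1, 1.28 ± 0.28 CPM in senescent control and 0.882 ± 0.141 CPM in growing cells (SD, n = 3 each; 2.23 ± 0.22 against growing cells, adjusted p = 6.42e-07). CDKN2B, the p15 gene, remained at a reduced level (38.6, 77.7 and 23.8 CPM on average in shTXNRD1, senescent control and growing cells).

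**Figure D2:**
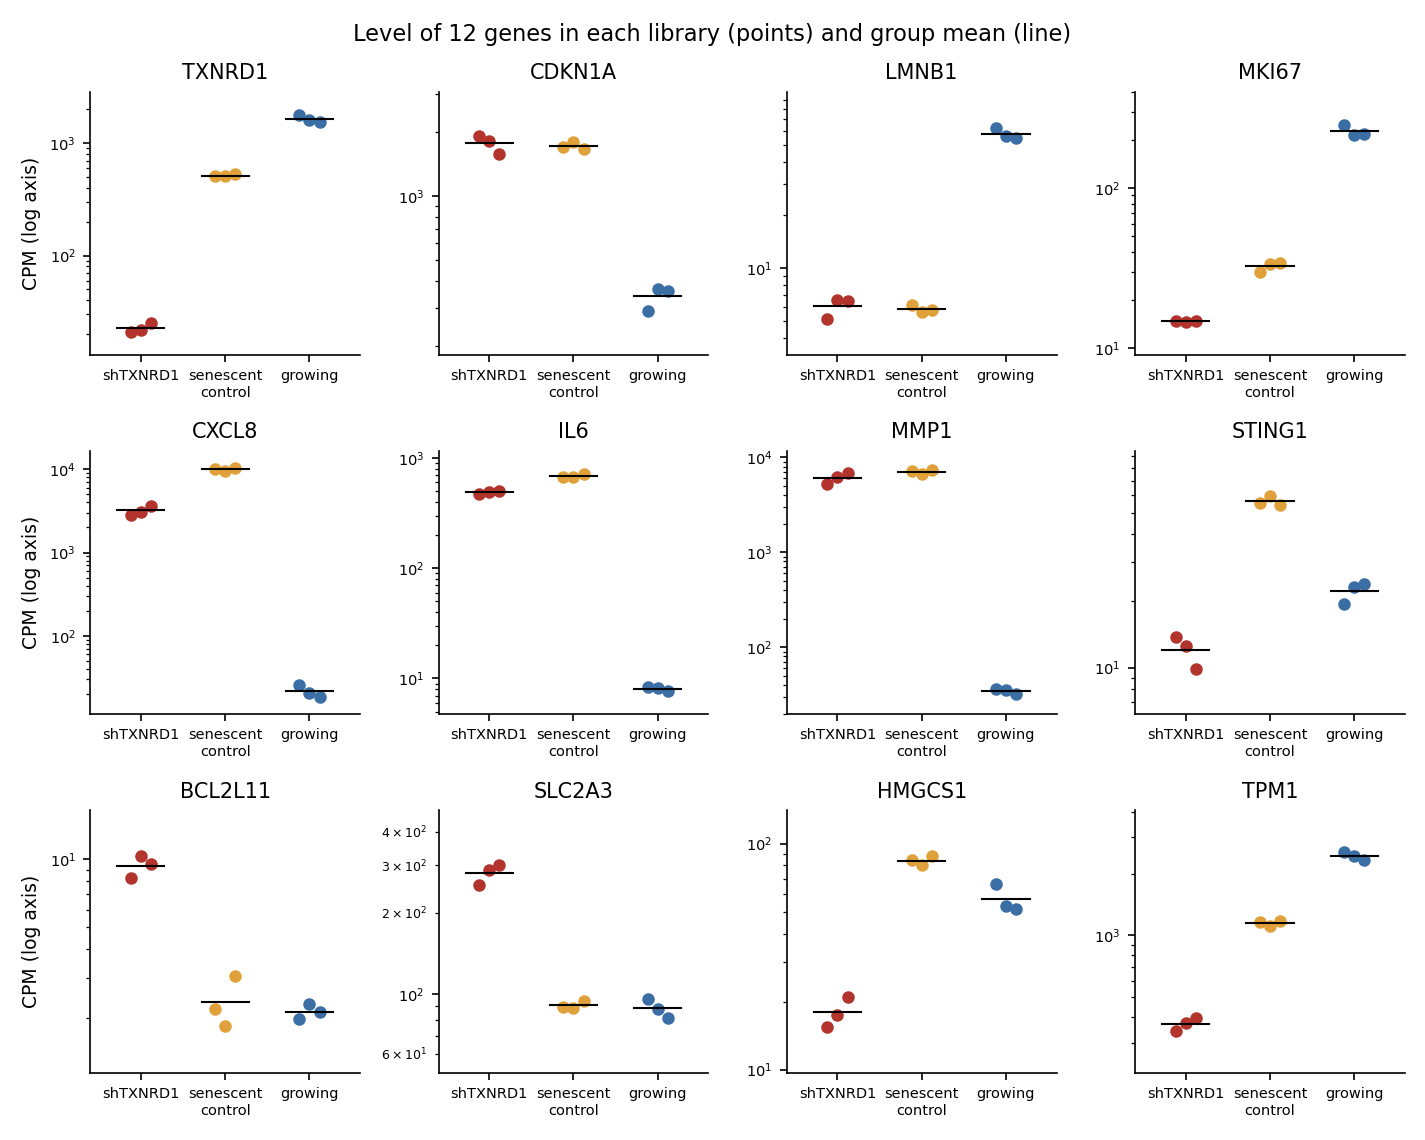
Level in CPM (log axis) of 12 genes in each library (points) with the group mean (line), for shTXNRD1 (red), senescent control (orange) and growing cells (blue). CDKN1A and LMNB1 of shTXNRD1 cells overlap the senescent controls, BCL2L11 and SLC2A3 are high in shTXNRD1 cells alone, and STING1 and HMGCS1 of shTXNRD1 cells lie below both other groups.

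Genes of DNA replication and mitosis were low. Of 43 S-phase genes, 42 were lower in shTXNRD1 than in growing cells (median -1.79) and none rose. Of 40 mitosis genes 38 were lower (median -3.35) and none rose, although 1 was called higher under upper-quartile scaling, with the GC correction, with a minimum mean of 5 CPM, without the first growing or the first shTXNRD1 library and without the 3 libraries low in GC-rich genes. The direct test called 26 S-phase genes lower and 4 higher, and 25 mitosis genes lower and 3 higher, in shTXNRD1 than in senescent control cells. MKI67, the antigen Ki-67, had 14.8, 14.5 and 14.8 CPM in shTXNRD1 libraries, 29.8, 33.6 and 34.2 CPM in senescent controls and 250, 216 and 217 CPM in growing libraries. Its 3 groups were fully apart, and the change against growing cells was -3.95 ± 0.07 (adjusted p = 1.56e-14). BIRC5, survivin, had 1.38 CPM with the hairpin, 7.04 CPM in senescent control and 42.6 CPM in growing cells, and TK1, thymidine kinase, 0.921, 5.64 and 17 CPM in the same order. In total RNA of a culture, fewer cycling cells and less RNA per cell cannot be told apart. CCNE1, cyclin E1, was new among the lower genes (4.65 ± 0.689 CPM in shTXNRD1, 12.1 ± 0.627 CPM in senescent control and 11.7 ± 0.75 CPM in growing cells, SD, n = 3 each). BUB3 and ECT2 were the mitosis genes lost from the senescent pattern (ECT2 averaged 87.7, 63.4 and 78 CPM). Of 23 genes of homologous recombination and Fanconi repair, 22 fell (median -2.03; RAD54L -3.83, POLQ -3.02), with 15 of them not called in the direct test. The exception was PALB2 (0.36 ± 0.09).

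The secretory phenotype remained, mostly at a reduced level. Of 29 cytokine, chemokine and growth factor genes, 23 rose and 5 fell in shTXNRD1 against growing cells, with a median of 5.13 when the genes at 0 in growing cells (IL33, CSF3 and CCL20) are entered at their lower bound. The fitted medians were 5.91 in shTXNRD1 and 6.42 in senescent control against growing cells, and the direct test called 22 of the 29 lower and 2 higher in shTXNRD1 than in senescent control cells (median -0.88). Of these 29, 28 remained, 17 of them nearer to growing cells than in senescent controls. CXCL8, interleukin-8, had 2825, 3099.8 and 3656 CPM in shTXNRD1 libraries, 9938, 9587 and 10323 CPM in senescent controls and 25.7, 20.8 and 18.6 CPM in growing libraries. IL6 had 473, 496 and 499 CPM in shTXNRD1 libraries, 679, 678 and 723 CPM in senescent controls and 8.45, 8.22 and 7.66 CPM in growing libraries. For both genes the shTXNRD1 libraries lay between the other groups on the CPM scale, far closer to senescent controls than to growing cells on the log scale: CXCL8 was 147-fold above growing cells (7.20 ± 0.14, adjusted p = 1.58e-14), against 458-fold in senescent control, and IL6 60.2-fold (5.91 ± 0.06, adjusted p = 7.03e-17), against 85.3-fold. IL1A and IL1B, the interleukin-1 cytokines, averaged 123 and 1445 CPM in shTXNRD1, 345 and 2733 CPM in senescent control and 0.0558 and 0.139 CPM in growing cells. CSF2, the growth factor GM-CSF, was much lower than in senescent control: 10.5 ± 4.08 CPM in shTXNRD1, 70.6 ± 12.7 CPM in senescent control and 1 count over the 3 growing libraries. CXCL10, an interferon-induced chemokine, averaged 12.6, 81.8 and 2.75 CPM, and CXCL11 was the gene of the list that was lost (0.369, 1.94 and 0.208 CPM).

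Some secreted factors were not lower with the hairpin. CCL20, a chemokine for CCR6-bearing leukocytes, had 54.4, 61.3 and 75.7 CPM in shTXNRD1 libraries, 55.6, 50.9 and 57.8 CPM in senescent controls and 0 in all 3 growing libraries. Its shTXNRD1 and senescent control libraries overlapped, and it was at least 1506-fold higher in shTXNRD1 than in growing cells, with a floor of 3 counts over the growing libraries. IL24, a cytokine of the interleukin-10 family, was higher with the hairpin (67 ± 6.59 CPM in shTXNRD1, 24.3 ± 1.11 CPM in senescent control and 0.21 ± 0.0254 CPM in growing cells, SD, n = 3 each). VEGFA, the angiogenic growth factor, was not called between the senescent groups (286, 289.9 and 58 CPM on average). AREG, an EGF receptor ligand, was uneven: 168, 175 and 1.29 CPM in shTXNRD1 libraries, 59.6, 61.2 and 64.5 CPM in senescent controls and 0, 0.781 and 0.517 CPM in growing libraries. The third shTXNRD1 library lay below every senescent control, so AREG is not counted among these factors. The 5 that fell against growing cells were CXCL12, CSF1, IL15, IL7 and HGF, and 4 of them lay further down with the hairpin.

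Secreted proteases, their inhibitors and IGF-binding proteins followed, with 18 of 27 higher, 5 lower and a median of 1.1. MMP1, interstitial collagenase, had 5237, 6173 and 6865 CPM in shTXNRD1 libraries, 7111, 6727 and 7303 CPM in senescent controls and 36, 35.1 and 31.8 CPM in growing libraries. The first 2 of these groups overlapped, and the rise over growing cells was 7.47 ± 0.11 (adjusted p = 2.65e-15). MMP3, stromelysin-1, was 66.3-fold above growing cells in shTXNRD1 cells, against 122-fold in senescent control. CTSL, a cathepsin, rose further with the hairpin (318, 137 and 113 CPM on average). SERPINE2, a serine protease inhibitor, was lost: 211, 242 and 249.7 CPM in shTXNRD1 libraries, 838, 804 and 867 CPM in senescent controls and 225, 213 and 206 CPM in growing libraries, so that hairpin and growing libraries overlapped. IGFBP5 was reversed (3278, 8924 and 5831 CPM on average; -0.83 ± 0.07 against growing cells), and SERPINB4 had 0.504 CPM with the hairpin, 33.2 CPM in senescent control and 0 counts in growing cells. SERPINB4 has a near-identical neighbour, SERPINB3, and its level is uncertain for that reason.

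**Figure D3:**
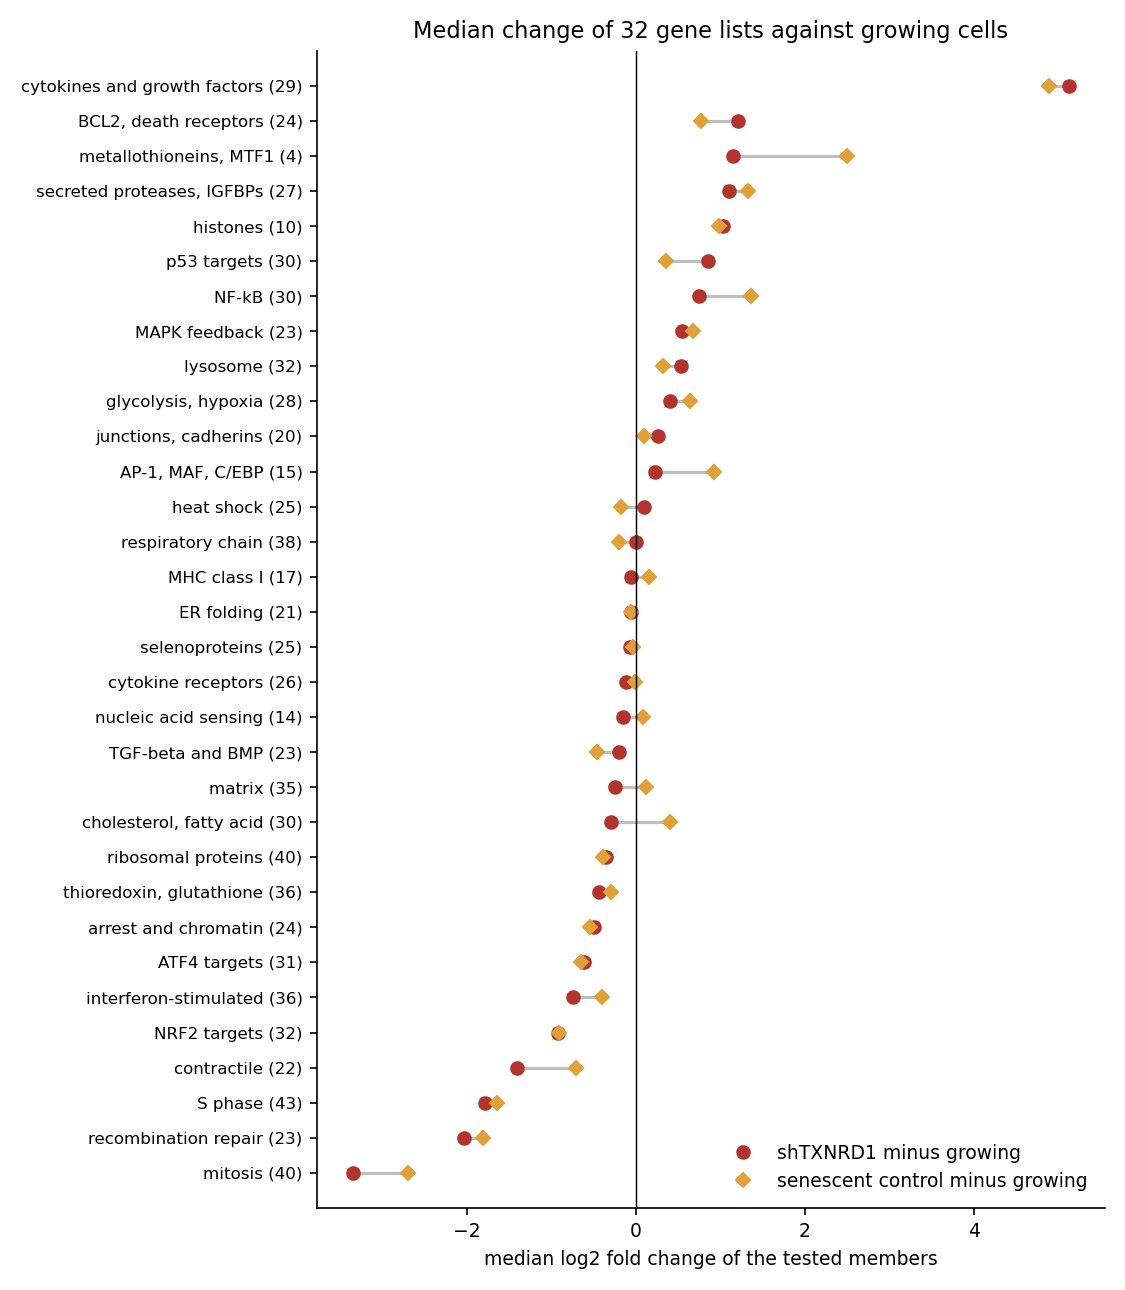
Median log2 fold change against growing cells of the tested members of 32 gene lists (number of members in brackets), for shTXNRD1 (red circles) and senescent control cells (orange diamonds), with genes at 0 in growing cells at their lower bound. Cytokines stand at 5.13 and 4.89 (5.91 and 6.42 as fitted, the opposite order), mitosis genes at -3.35 and -2.70, and contractile genes at -1.41 and -0.71; both comparisons share the growing libraries.

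Of 30 NF-kB subunits, feedback regulators and targets, 19 rose, 4 fell and the median was 0.75 in shTXNRD1 against growing cells, beside 26, 2 and 1.36 in senescent control against growing cells. The feedback regulators TNFAIP3 (113 ± 6.98, 119.6 ± 1.93 and 10.2 ± 1.02 CPM in shTXNRD1, senescent control and growing cells, SD, n = 3 each) and NFKBIZ (308, 287 and 36.3 CPM on average) were not called in the direct test, and PTGS2, cyclooxygenase-2, was higher with the hairpin (441, 354 and 0.728 CPM). BIRC3, an inhibitor of apoptosis and NF-kB target, had 8.8, 8.88 and 9.07 CPM in shTXNRD1 libraries, 53.1, 49.1 and 55.2 CPM in senescent controls and 9.48, 6.91 and 7.52 CPM in growing libraries. Hairpin and growing libraries overlapped, and the log2 difference was 0.16 ± 0.10 (adjusted p = 0.184). RELA, NFKBIB and TRAF1 were lost in the same sense, and CD83, lower in senescence, was lost too. NFKB1, the p50 subunit, and IRF1, an interferon-response factor, were reversed, IRF1 with 14.2 ± 0.602 CPM in shTXNRD1, 66.4 ± 2.96 CPM in senescent control and 50.1 ± 4.91 CPM in growing cells (SD, n = 3 each; -1.82 ± 0.08). VCAM1, an adhesion molecule, was below growing cells in both senescent groups (16.9, 92.2 and 133 CPM).

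In nucleic acid sensing, 3 of 14 genes rose and 7 fell. STING1, the adaptor of cGAS, had 13.8, 12.5 and 9.91 CPM in shTXNRD1 libraries, 55.7, 59.5 and 54.4 CPM in senescent controls and 19.4, 23.1 and 23.8 CPM in growing libraries. It was highest in senescent controls, and shTXNRD1 libraries lay below the growing ones without overlap (-0.87 ± 0.11, adjusted p = 7.66e-06). CGAS itself was lower than in growing cells in both senescent groups (4.49 ± 0.6, 4.9 ± 0.452 and 7.5 ± 0.578 CPM in shTXNRD1, senescent control and growing cells, SD, n = 3 each). IFIH1 and TREX1, an RNA sensor and a DNA exonuclease, were new among the lower genes, and IFNB1 had 0 counts in all 9 libraries.

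Interferon-stimulated genes were mostly lower than in growing cells, with 21 of 36 down, 3 up (HERC5, STAT2 and ISG20) and a median of -0.75. GBP2, a guanylate-binding protein, had 3.7, 3.33 and 3.62 CPM in shTXNRD1 libraries, 38.4, 35.9 and 40.5 CPM in senescent controls and 45.3, 41.1 and 40.9 CPM in growing libraries. The hairpin libraries stood 12-fold below growing cells (-3.58 ± 0.08, adjusted p = 7.98e-14), while senescent control cells were 1.11-fold below growing cells, which was not called. GBP1, whose promoter is printed above, averaged 25.1 CPM in shTXNRD1, 73.4 CPM in senescent control and 223 CPM in growing cells. OAS2, USP18, SAMD9L, XAF1 and PARP14 were new among the lower genes as well, and the direct test called 18 of the 36 lower and 6 higher in shTXNRD1 than in senescent control cells. ISG15, MX1 and IFI27 were not called (0.11, -0.08 and -0.20 on the log2 scale).

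Targets of p53 were mostly higher than in growing cells. Of 30 targets, 24 rose against growing cells, 1 fell (GADD45A) and the median was 0.86, beside 16 higher, 2 lower and 0.36 in senescent control against growing cells. New were XPC, SESN1, SESN2, PLK2, TP53I3, CCNG1 and PPM1D. SESN1, a stress-induced regulator of mTORC1, had 32, 35.7 and 40.6 CPM in shTXNRD1 libraries, 16.5, 18.2 and 16.8 CPM in senescent controls and 18.5, 16.2 and 15.4 CPM in growing libraries. Senescent control and growing libraries overlapped, and shTXNRD1 libraries stood above both (1.11 ± 0.10 against growing cells, adjusted p = 2.98e-07). The death receptors FAS, TNFRSF10A and TNFRSF10B and the genes TP53INP1, TIGAR and TRIAP1 were already higher in senescent control and rose further, TNFRSF10B to 782 ± 37.6 CPM in shTXNRD1, against 451 ± 1.63 CPM in senescent control and 243 ± 2.45 CPM in growing cells (SD, n = 3 each).

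Among 24 BCL2 family and death receptor genes, 17 rose, 3 fell and the median was 1.21. The pro-apoptotic genes BCL2L11, BIK, BAK1 and PMAIP1 were new. BCL2L11, the BH3-only protein BIM, had 8.3, 10.3 and 9.51 CPM in shTXNRD1 libraries, 2.19, 1.83 and 3.05 CPM in senescent controls and 1.98, 2.3 and 2.11 CPM in growing libraries. The shTXNRD1 libraries stood apart from both, and the other groups overlapped (2.13 ± 0.19 against growing cells, adjusted p = 1.69e-07). BIK averaged 1.56 CPM in shTXNRD1 and 0.0902 CPM in senescent control cells and had 1 count over the growing libraries, a ratio of 110.4 over growing cells (95% counting interval 19.8 to 4361). The anti-apoptotic genes MCL1 and BCL2L1 remained higher, MCL1 further with the hairpin (873, 694 and 364 CPM on average), whereas BCL2 was lower in both senescent groups (0.93, 1.2 and 9.95 CPM). BID, a BH3-only protein, was reversed downward (38.4, 78.4 and 62.3 CPM) and TNFSF4, the OX40 ligand, upward (136, 21.8 and 49.7 CPM).

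**Figure D4:**
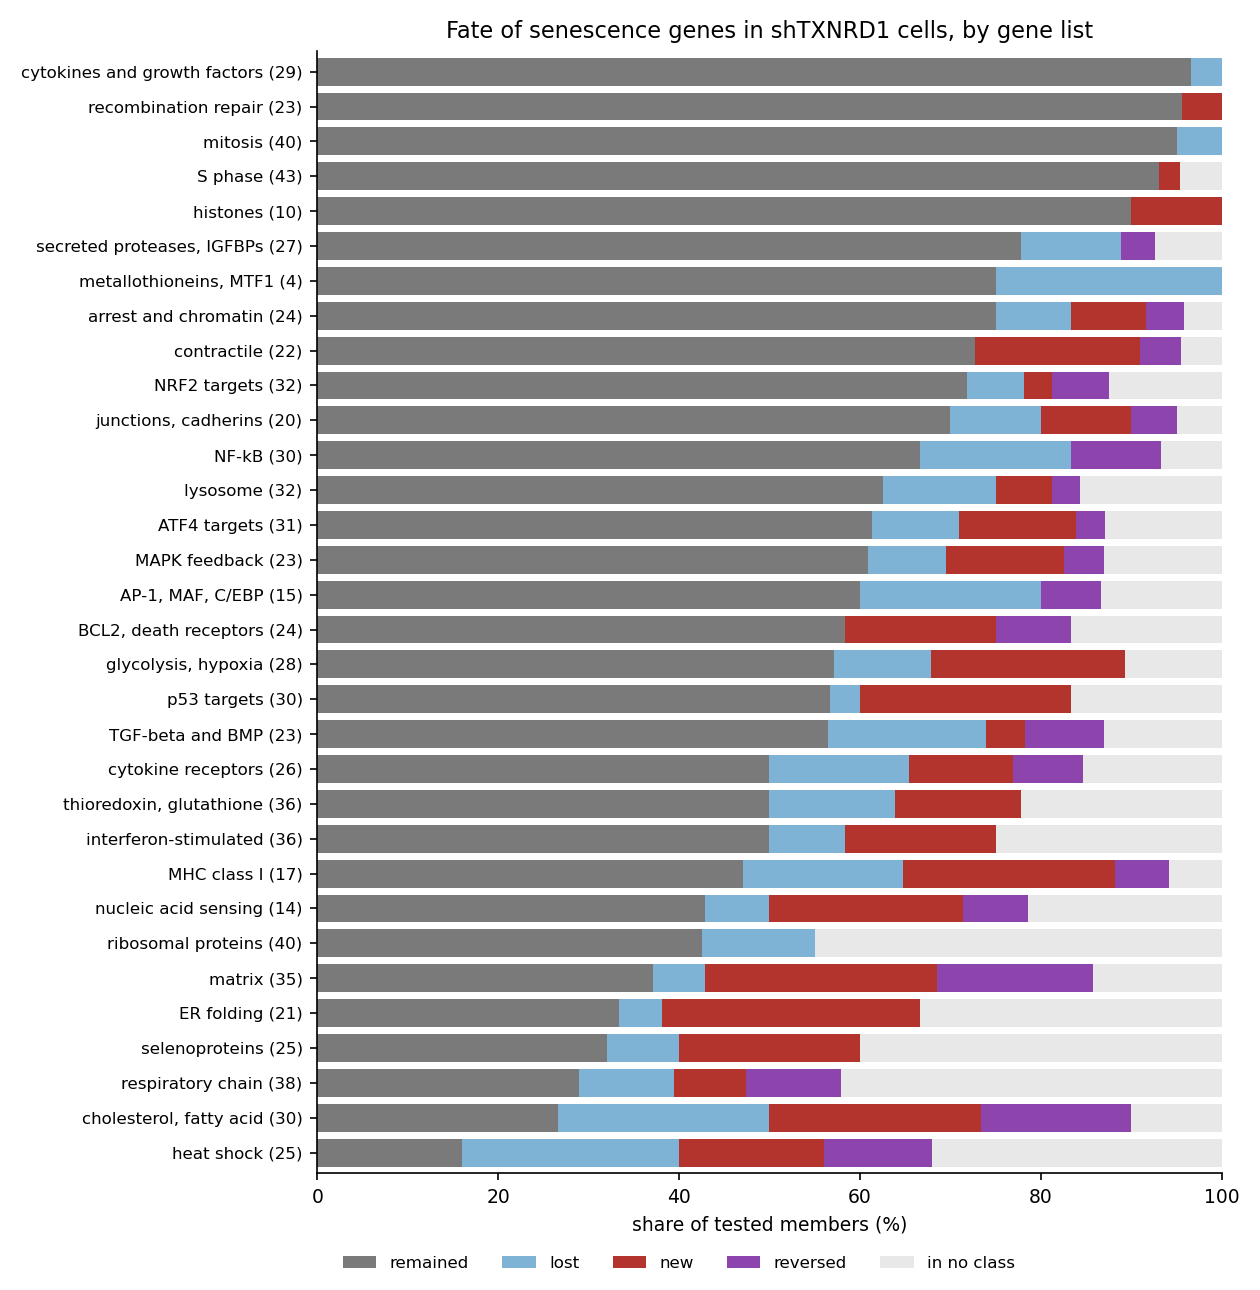
Share of the tested members of 32 gene lists (x axis, percent; number of members in brackets) that remained (grey), were lost (light blue), new (red) or reversed (purple) or were in no class. Cytokines (28 of 29 remained) lie at the top, and cholesterol and fatty acid genes (8 of 30 remained) and heat shock genes near the bottom. Over all tested genes 40.3% remained, 9.05% were lost, 14.2% new and 3.68% reversed.

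Targets of NRF2, the factor of the antioxidant response, were low in both senescent groups. Of 32, 26 fell and 2 rose in shTXNRD1 against growing cells (median -0.92), beside 22, 5 and -0.91 in senescent control. TXNRD1 is itself a member of this list and of the next 2, and is counted among the genes that fell. NQO1, a quinone reductase, had 117, 139.9 and 151 CPM in shTXNRD1 libraries, 142, 135 and 134 CPM in senescent controls and 879, 794 and 749 CPM in growing libraries. The senescent groups overlapped, far under growing cells (-2.57 ± 0.09, adjusted p = 7.22e-12). SLC7A11, the cystine importer, was nearer to growing cells with the hairpin (177, 85.2 and 623 CPM on average). GCLC, which makes the glutathione precursor, was higher in senescence and lost with the hairpin (65.6, 94.7 and 59.2 CPM). AKR1B1 and ABCC5 were the 2 that rose.

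Of 36 thioredoxin, peroxiredoxin and glutathione genes, 20 fell and 4 rose (8 rose and 23 fell with the GC correction). Thioredoxin itself, TXN, had 273 ± 36.5 CPM in shTXNRD1, 209.5 ± 10.9 CPM in senescent control and 353 ± 33.8 CPM in growing cells (SD, n = 3 each), nearer to growing cells with the hairpin. TXNRD2, the mitochondrial reductase, averaged 10.8, 15.3 and 10.9 CPM and counted as lost, while TXNRD3 was lower in both senescent groups (4.72, 4.6 and 11.7 CPM). Of 25 selenoprotein and selenocysteine machinery genes, 7 rose and 9 fell, but 4 rose and 6 or 7 fell without the second or the third growing library, and their median of -0.07 was above 0 under upper-quartile scaling, with a minimum mean of 5 CPM and without the third growing or the third shTXNRD1 library. SECISBP2, PSTK and SEPSECS, which serve selenocysteine insertion, were new among the higher genes, SECISBP2 with 60.6 ± 3.2 CPM in shTXNRD1, 38.1 ± 1.74 CPM in senescent control and 36.8 ± 2.42 CPM in growing cells (SD, n = 3 each).

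RAS and MAPK feedback genes stayed high, 15 of 23 above and 4 below growing cells (median 0.55). HRAS had 73.1, 49.6 and 24.3 CPM in shTXNRD1 libraries, 95, 106 and 77 CPM in senescent controls and 7.5, 15.8 and 19.8 CPM in growing libraries. It was higher in both senescent groups without overlap (1.78 ± 0.37 for shTXNRD1, adjusted p = 0.00114), and its low values fell in the libraries low in GC-rich genes. The ERK phosphatase gene DUSP5 was higher with the hairpin (159 ± 2.5 CPM in shTXNRD1, 59.1 ± 2.78 CPM in senescent control and 29.8 ± 0.631 CPM in growing cells, SD, n = 3 each), as was the feedback inhibitor SPRY2 (125, 81.8 and 19.1 CPM on average). EGR1, an immediate-early factor, was reversed (23.2, 65.8 and 41.2 CPM), and NRAS and DUSP1, lower in senescence, were lost (NRAS 162, 81.9 and 165 CPM). Of 15 AP-1, MAF and C/EBP genes, 7 rose and 3 fell (2 fell without the 3 libraries low in GC-rich genes). CEBPB, a factor of the secretory phenotype, remained (66.4, 55.4 and 19.8 CPM), and JUNB was lost (3.62, 11.2 and 3.14 CPM).

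Contractile and actin genes were low as well: 20 of 22 were lower than in growing cells (median -1.41), and only ANKRD1 rose. The direct test called 18 of the 22 lower and 2 higher in shTXNRD1 than in senescent control cells. TPM1, tropomyosin 1, had 343, 374 and 394 CPM in shTXNRD1 libraries, 1159, 1109 and 1177 CPM in senescent controls and 2549, 2422 and 2339 CPM in growing libraries. The shTXNRD1 libraries were lowest, the senescent controls between and the growing libraries highest, with no overlap (-2.72 ± 0.06 against growing cells, adjusted p = 9.47e-14). FLNA, filamin A, was new but uneven, with 1169, 684 and 338 CPM in shTXNRD1 libraries, 2065, 2415 and 1638 CPM in senescent controls and 1347, 2866 and 3757 CPM in growing libraries, the lowest of each group being a library low in GC-rich genes. ANKRD1, a target of YAP, was reversed upward (50.5, 13.9 and 24.8 CPM on average).

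Of 35 collagens and matrix glycoproteins, 9 rose and 19 fell (median -0.24), beside 16 and 6 (0.12) in senescent control against growing cells. New among the lower genes were COL1A1, COL5A1, COL5A2, FBN1, FBN2, LOXL1, SPARC, THBS1 and VCAN. These classes depended on the settings: 9 genes of the list were new, 6 reversed and 2 lost, but 4, 11 and 0 with the GC correction. COL1A1 was uneven, with 1449.6 to 3832 CPM in shTXNRD1 and 2685 to 6197 CPM in growing libraries, which overlapped. THBS1, thrombospondin-1, had 1678, 1755 and 1832 CPM in shTXNRD1 libraries, 4443, 4477 and 4608 CPM in senescent controls and 4623, 4273 and 4490.2 CPM in growing libraries. The other groups overlapped and the hairpin libraries lay far below them (-1.35 ± 0.05 against growing cells, adjusted p = 1.29e-11). COL5A1 averaged 92.9 CPM in shTXNRD1, 542 CPM in senescent control and 497 CPM in growing cells, and FBN1, fibrillin-1, 557, 1176 and 1203 CPM. COL3A1, COL4A1, COL12A1, LOXL2 and BGN were reversed downward and DCN, decorin, upward. POSTN, periostin, rose further with the hairpin (120.2, 60.4 and 12.3 CPM). Within TGF-beta and BMP signalling, 7 of 23 genes rose and 10 fell. TGFB2 was lower again with the hairpin (68.3, 199 and 321 CPM), while the BMP target ID4 was lost, with 4.35, 3.85 and 5.01 CPM in shTXNRD1 libraries, 0.487, 0.247 and 0.2 CPM in senescent controls and 5.08, 4.73 and 4.51 CPM in growing libraries, where hairpin and growing libraries overlapped.

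Genes of cholesterol and fatty acid synthesis were mostly lower with the hairpin than in senescent control cells, 25 of 30 by the direct test and none higher. Against growing cells, 5 of 30 genes rose and 15 fell in shTXNRD1 (median -0.30), beside 18 and 3 (0.40) in senescent control. HMGCS1, the synthase at the head of the mevalonate pathway, had 15.5, 17.5 and 21 CPM in shTXNRD1 libraries, 84.3, 80.1 and 88 CPM in senescent controls and 66.2, 52.8 and 51.3 CPM in growing libraries. It was highest in senescent controls and lowest with the hairpin without overlap (-1.66 ± 0.11 against growing cells, adjusted p = 9.41e-09). IDI1, MSMO1, FADS1 and ELOVL6 were reversed likewise. FADS2, SQLE, MVK, PMVK, HSD17B7 and STARD4 were among the 7 new genes, all of them lower than in growing cells. FDPS, FDFT1, LSS, CYP51A1, EBP, DHCR7 and the regulator SREBF2 were lost, and SCD, stearoyl-CoA desaturase, was lower in both senescent groups (42.1, 179 and 285 CPM). The classes of this list depended on the settings: 7 genes were lost, 7 new and 5 reversed, but 4, 4 and 9 with the GC correction. Without the 3 libraries low in GC-rich genes the numbers were 6, 6 and 7.

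In glycolysis and the hypoxia response, 18 of 28 genes rose and 5 fell (median 0.41), beside 20 and 0 (0.645) in senescent control against growing cells. The direct test called 15 of the 28 lower and 3 higher in shTXNRD1 than in senescent control cells (median -0.36). SLC2A3, the glucose transporter GLUT3, was new, with 253, 288 and 301 CPM in shTXNRD1 libraries, 89.7, 89 and 94.1 CPM in senescent controls and 95.9, 88.4 and 81.7 CPM in growing libraries. The other groups overlapped, and the hairpin libraries were 3.16-fold above growing cells (1.66 ± 0.07, adjusted p = 9.23e-11). GAPDH, PKM, ENO1, PFKP and HK1 were new among the lower genes, PKM with 1026 ± 124 CPM in shTXNRD1, 2712 ± 59 CPM in senescent control and 2333 ± 299.8 CPM in growing cells (SD, n = 3 each), and LDHA was lost (911, 1337 and 847 CPM on average). Of 38 respiratory chain subunits, 7 rose and 12 fell (11 and 14 with the GC correction, 7 and 6 with 3 groups in the fit), and the sign of their median depended on the settings. Of 40 ribosomal protein genes 18 fell and none rose, while 29 fell without the first growing library and 28 without the 3 libraries low in GC-rich genes.

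Lysosomal genes were raised, 21 of 32 above and 3 below growing cells (5 below with the GC correction; median 0.53). The direct test called 16 of the 32 higher and 7 lower in shTXNRD1 than in senescent control cells. FUCA1, a fucosidase, averaged 18.3 CPM in shTXNRD1, 5.87 CPM in senescent control and 4.15 CPM in growing cells, GLA, alpha-galactosidase A, 26.4, 14 and 9.41 CPM, and CTSS, a cathepsin, 151, 205 and 2.18 CPM. NPC2, a cholesterol carrier, was reversed (45.2, 119.5 and 99 CPM). Of 25 heat shock and chaperone genes 9 rose and 5 fell, against 1 and 13 in senescent control, with 6 lost, 4 new and 3 reversed. HSPH1 averaged 299, 192 and 232 CPM in shTXNRD1, senescent control and growing cells, and HSPD1, a mitochondrial chaperonin, 478, 323 and 399.8 CPM. The 5 that fell became 3 without some single libraries, with the replicate block or with 3 groups in the fit. Targets of ATF4, the amino acid stress factor, fell in 19 of 31 cases and rose in 5 (median -0.61). The counts were the same in senescent control against growing cells, 19 and 5 (median -0.65). PSAT1 of serine synthesis fell to 5.42 CPM in shTXNRD1, against 19.9 CPM in senescent control and 119 CPM in growing cells. Of 21 genes of endoplasmic reticulum stress 8 rose and 5 fell (10 and 10 with the GC correction, 8 and 8 without the third shTXNRD1 library), and of 17 MHC class I and peptide processing genes 6 rose and 8 fell; the medians of both lists changed sign with the settings. B2M, beta-2-microglobulin, was new and higher (1714, 1309 and 1219 CPM), while the HLA genes, whose reads can be shared between paralogs, were higher in both senescent groups.

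Several surface proteins lay far beyond senescent control. CXCR4, a chemokine receptor, had 11.3, 12 and 13.3 CPM in shTXNRD1 libraries, 1.58, 1.14 and 1.8 CPM in senescent controls and 0 in all 3 growing libraries. No groups overlapped, and CXCR4 was at least 289-fold higher in shTXNRD1 than in growing cells, against at least 35.6-fold in senescent control. IL13RA2, a decoy receptor for interleukin-13, averaged 80.7, 21.2 and 0.248 CPM and IL1RL1, the interleukin-33 receptor, 4.9, 0.578 and 0.113 CPM. Among 26 cytokine and growth factor receptors 9 rose and 9 fell, PDGFRB among those that fell (41.3, 143 and 284 CPM). Of 20 junction and cadherin genes 10 rose and 7 fell. F11R, junctional adhesion molecule A, had 29.2, 32.8 and 34 CPM in shTXNRD1 libraries, 4.26, 5.09 and 4.25 CPM in senescent controls and 0.714, 0.617 and 0.705 CPM in growing libraries, and CXADR, the coxsackie and adenovirus receptor, averaged 67, 10.3 and 1.24 CPM. Both were highest in hairpin cells, with senescent control cells between these and growing cells. KDR, the VEGF receptor of endothelial cells, averaged 8.24, 0.471 and 0.13 CPM, while the endothelial list summed to 108 to 133 CPM in shTXNRD1, 161 to 173 CPM in senescent control and 109 to 134 CPM in growing libraries, and 2 of its 5 tested members rose. EPCAM, an epithelial adhesion gene, was new at low level (3.63, 1.08 and 1.35 CPM). Leukocyte markers summed to 19.4 to 39.0 CPM in shTXNRD1, 73.1 to 81.1 CPM in senescent control and 15.8 to 26.0 CPM in growing libraries, mostly from CD68, a lysosomal protein, which was lost.

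The leading genes of each class were picked by a rule on size without overlap of libraries. Among genes that remained and lay further out, EHF, an epithelial ETS factor, averaged 129.5 CPM in shTXNRD1 and 101 CPM in senescent control cells and had 1 count over the growing libraries. KCND3, a potassium channel gene, had 0.2, 0.175 and 0.198 CPM in shTXNRD1 libraries, 1.5, 1.73 and 0.9 CPM in senescent controls and 16.1, 15.7 and 15.6 CPM in growing libraries, a change of -6.33 ± 0.22 against growing cells (adjusted p = 7.22e-12). SERTAD4 changed by -5.50 ± 0.19. Among genes nearer to growing cells, CSF3, the growth factor G-CSF, had 139.9, 111 and 94 CPM in shTXNRD1 libraries, 169, 197 and 165 CPM in senescent controls and 0 in growing libraries, at least 2717-fold above growing cells. ID2, a BMP target, averaged 7.9, 3.14 and 86.7 CPM and GPC6, a glypican, 16.2, 7.51 and 104 CPM. CST1 and the pseudogene CES1P1 also led their classes, but share sequence with paralogs and are uncertain.

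Lost genes were by definition not called against growing cells, so their nearness to growing cells is set by the class. RASGRP3, an exchange factor for RAS and RAP, had 2.1, 2.71 and 2.08 CPM in shTXNRD1 libraries, 30.3, 33.2 and 33.8 CPM in senescent controls and 2.14, 1.56 and 1.93 CPM in growing libraries. C1QTNF7, a secreted C1q-like protein, averaged 1.19, 11.3 and 1.22 CPM and ICOSLG, a T-cell costimulatory ligand, 1.15, 6.86 and 0.701 CPM. The hairpin libraries of all 3 overlapped the growing ones. KIT, the stem cell factor receptor, was lost from the lower genes with 11.5 ± 0.753 CPM in shTXNRD1, 3.49 ± 0.287 CPM in senescent control and 14.4 ± 1.11 CPM in growing cells (SD, n = 3 each). Its hairpin and growing libraries did not overlap. KIT and KLHL23 lay at the border of the class, with adjusted p = 0.0512 and 0.0538 against growing cells, and were called lower in some other settings, both of them without the third shTXNRD1 library (-0.37 and -0.55) and KLHL23 also without the second growing library (-0.50). ICOSLG was called higher without the third shTXNRD1 library (0.98), and RASGRP3 without the 3 libraries low in GC-rich genes (0.48), with a minimum mean of 5 CPM (0.38) and under upper-quartile scaling (0.37).

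New genes were by definition called apart from both other groups. The long noncoding RNA MGC12916 had 16.4, 17.3 and 17.8 CPM in shTXNRD1 libraries, 1.01, 1.09 and 1.05 CPM in senescent controls and 1.94, 1.48 and 1.5 CPM in growing libraries, 10.4-fold above growing cells (3.38 ± 0.25, adjusted p = 2.84e-08). AP1G2, an adaptor subunit of vesicle transport, averaged 9.41, 1.64 and 1.28 CPM and MAP7D2, a microtubule-binding protein, 7.64, 1.27 and 1.23 CPM. Downward, GALNT1, which starts O-linked glycans, averaged 28.3, 171 and 198 CPM and TNS2, a tensin, 3.39, 22.8 and 23.3 CPM, beside GBP2.

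Reversed genes stood, as the class is defined, on opposite sides of growing cells in the 2 senescent groups. FAT3, an atypical cadherin, had 0.95, 0.875 and 1.04 CPM in shTXNRD1 libraries, 11, 10.3 and 11 CPM in senescent controls and 4.12, 3.29 and 3.62 CPM in growing libraries (-1.94 ± 0.12 in shTXNRD1 and 1.55 ± 0.10 in senescent control against growing cells). WFDC1, a secreted protease inhibitor-like protein, averaged 10.9, 72.9 and 25.8 CPM. SCG2, secretogranin II, went the other way, with 21.3, 22.5 and 27.1 CPM in shTXNRD1 libraries, 1.18, 1.58 and 1.75 CPM in senescent controls and 3.89, 3.37 and 3.1 CPM in growing libraries (2.77 ± 0.14 and -1.21 ± 0.16). FRAS1, a matrix protein of basement membranes, averaged 4.62, 0.584 and 1.67 CPM.

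**Figure D5:**
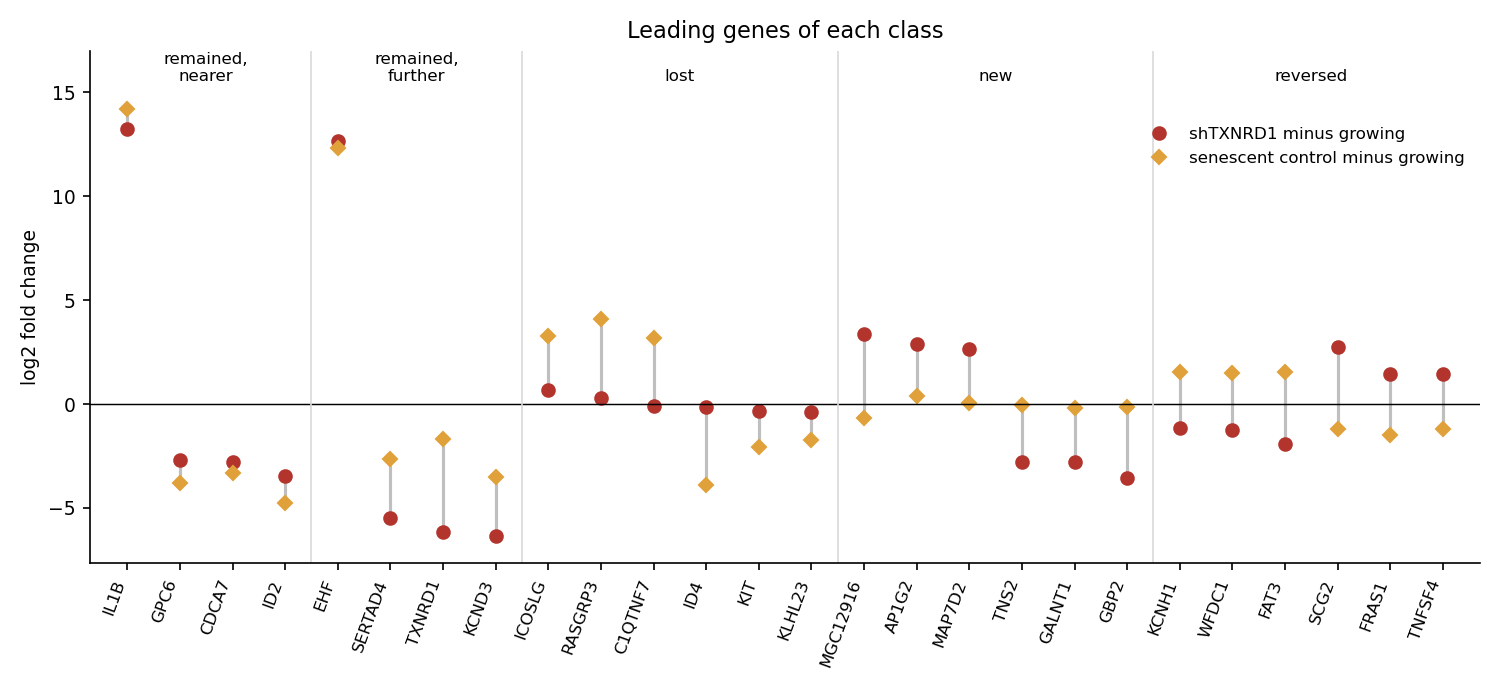
Log2 fold change against growing cells (y axis) of the 26 leading genes of the classes that were not at 0 in growing cells, for shTXNRD1 (red circles) and senescent control cells (orange diamonds). Lost genes have shTXNRD1 values from -0.40 (KLHL23) to 0.70 (ICOSLG), new genes shTXNRD1 values farther from 0 than senescent control values (GBP2 -3.58 and -0.15), and reversed genes values on both sides of 0 (SCG2 2.77 and -1.21). These patterns follow from how the classes are defined.

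The classes were also read in senescent cells with Tri-1 against those with DMSO, where 3176 genes were called (19.9%), 1222 higher (7.64%) and 1954 lower (12.2%). These libraries were on neither side of the comparisons that set the classes, but they shared the model whose filter and spread estimate entered the calls. The labels give no dose or time for Tri-1. Of the 624 genes that were higher in senescence and nearer to growing cells with the hairpin, 69 were higher (11.1%) and 187 lower (30%) with Tri-1. Of the 462 that were lower in senescence and nearer to growing cells, 38 were higher (8.23%) and 99 lower (21.4%), so most called genes of both sets were lower. Of the 262 reversed genes that were higher in senescence, 28 were higher (10.7%) and 94 lower (35.9%), and of the 326 that were lower in senescence, 40 were higher (12.3%) and 49 lower (15%). Of the 613 lost genes that were higher in senescence, 45 were higher (7.34%) and 92 lower (15%), and of the 834 lost from the lower genes, 60 were higher (7.19%) and 93 lower (11.2%). Genes further up with the hairpin went both ways, 161 of 1003 higher (16.1%) and 144 lower (14.4%), while of those further down 102 of 1225 were higher (8.33%) and 322 lower (26.3%). New higher genes went both ways too, with 125 of 1273 higher (9.82%) and 128 lower (10.1%), and of new lower genes 75 of 1003 were higher (7.48%) and 164 lower (16.4%).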

How the data were processed

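Total RNA of IMR90 cells was sequenced on a NextSeq 500 as paired ends after KAPA RNA HyperPrep library preparation, per the labels' protocols. The deposited values are raw counts per Ensembl gene, whole numbers in each of 15 libraries. RSEM 1.2.3, hg19, mm10 and DESeq2 (its version is not listed) appear in the submitters' processing notes, with no role given. For the aligner, annotation and strand setting nothing is given in the sources used here, and whether the counts are rounded estimates is not stated, so genes that share reads with paralogs or overlapping genes are uncertain.

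Counts were tested with the quasi-likelihood F test of edgeR 4.0.16 (R 4.3.3; robust fit, TMM scaling, filterByExpr by group) over all 15 libraries in 5 groups of 3, with Benjamini-Hochberg adjustment over 15994 genes and a threshold of 0.05. The procedure was tested on simulated data. These held no GC trend and far fewer changed genes than were called here, so that run cannot vouch for the calls. SE is the absolute log2 fold change divided by the square root of F. A single gene's exact permutation test of 3 against 3 libraries cannot go below p = 0.1. Bounds for genes at 0 use a floor of 3 counts over a group and, like the 95% intervals of ratios, cover counting error only. The 37 gene lists hold 894 genes, of which 842 were tested, 40 were under the filter and 12 had no match and were not analysed here.

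The members and lists were chosen with earlier results of these data known. Genes were named by a rule: a panel of senescence genes, the 3 largest per class and direction without overlap of libraries at a mean log2 CPM of at least 1, the 4 largest changes each way, and the 2 list members with the smallest p. Other genes named were picked after their values were seen. Alternatives covered scaling (RLE, upper quartile), tool (DESeq2 1.42.0, limma-voom with limma 3.58.1), filters, threshold, GC correction, a replicate block, the groups in the fit and each library left out. Leaving out the 3 libraries low in GC-rich genes was added after seeing the data.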

Additional observations from a re-analysis of the deposited data

How the results depend on the processing

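Counts of calls and of classes stayed within 1.5 times under the settings tried, except as follows. Testing against a 2-fold minimum left 1365 genes higher and 1293 lower in shTXNRD1 against growing cells and 1249 and 719 in senescent control against growing cells, with 821 and 547 remaining, 148 and 28 lost, 125 and 228 new and 5 and 1 reversed (higher and lower in each pair). Reversed genes numbered 212 lower with 3 groups in the fit, 514 higher with the GC correction, and 154 higher and 152 lower at an adjusted p under 0.01. Without the direct test 969 higher genes were lost. The cause was not tested where the construction (a stricter or looser call) does not show it.

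With 1 library left out at a time, shTXNRD1 against growing cells gave 4748 to 5205 genes higher and 4558 to 4991 lower, and senescent control against growing cells 3926 to 4829 and 4266 to 4976. Remaining genes numbered 2867 to 3404 higher and 3090 to 3568 lower, lost genes 472 to 882 and 641 to 955, new genes 1068 to 1404 and 859 to 1233, and reversed genes 208 to 318 and 237 to 431.

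Whether replicate numbers pair the libraries could not be read from the counts. Deviations of same-numbered shTXNRD1 and growing libraries correlated at -0.611, 0.0168 and -0.536 across genes, and not every library correlated best with its own number. These deviations also carry the differences in GC content within groups, so the correlations cannot show whether same-numbered libraries belong together. With the replicate block, 5021 genes were higher and 4743 lower in shTXNRD1 against growing cells.

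Of 2140 alternatives for the 98 genes named by the rule, 2108 kept direction and side of the threshold. Genes named outside the rule, such as BCL2L11, SLC2A3 and HMGCS1, were not in this count. With the 2-fold minimum, CDKN2A, CGAS, STING1, KCNH1, NDUFV2, UQCRQ, RPL27, RPL30, PSME1 and MTF1 were no longer called. Over the libraries left out 1 at a time, C1QTNF7 ranged between -0.26 and 0.10 and ICOSLG between -0.00 and 0.98. C1QTNF7, at -0.07 and not called, was 0.02 with a minimum mean of 5 CPM, 0.01 under upper-quartile scaling, 0.05 and 0.03 without growing replicate 1 or 2, 0.10 without shTXNRD1 replicate 2 and 0.01 without the 3 libraries low in GC-rich genes. ICOSLG was -0.00 without shTXNRD1 replicate 1. Depth limits genes near 0 counts in growing cells, and 3 libraries a group limit the error estimate.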

Other observations

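Replication-dependent histone genes, which are normally read in S phase, were mostly higher than in growing cells: of 10 tested, 8 were higher and 2 lower in shTXNRD1 cells (median 1.03), and 8 higher and 1 lower in senescent control cells (median 0.99). Histone genes share sequence and their single values are uncertain. Of the 3 metallothioneins tested, which bind zinc and copper, MT1X (2.33 in shTXNRD1 and 3.36 in senescent control cells, log2 against growing cells) and MT2A (1.84 and 2.82) were called higher in both groups. MT1E was lost, with 14.2, 10.3 and 8.28 CPM in shTXNRD1 libraries, 47, 51.4 and 44.5 CPM in senescent controls and 8.21, 11.3 and 12.1 CPM in growing libraries.

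Some list genes were under the filter on low counts. The chemokine gene CCL8 had 5 counts over the 3 shTXNRD1 libraries, 39 over the senescent controls and 0 over the growing libraries, and OAS1, an interferon-induced enzyme, had 1, 11 and 16 counts in the same order.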
